A study of Mus musculus with 56 samples.

Results

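Genes that mark the sinusoidal endothelium, 10 in number, were followed through the livers of mice fed by day or by night. Stab1, Stab2, Lyve1, Cdh5, Eng, Ptprb, Flt4, Ehd3, Kdr and Fcgr2b were taken by symbol from the gene table, and all 10 were found among the 25415 genes listed and the 25304 genes tested. The 56 animals were C57BL/6J females, 9 weeks of age, on normal chow and a cycle of 12 h light and 12 h dark. Over 7 days one set received food in the daytime only (DRF) and the other, the reference, in the nighttime only (NRF). Livers were sampled every 4 h from ZT0 to ZT24, where ZT is zeitgeber time in hours and lights went on at ZT0, from 4 animals per regimen and time and thus 28 per regimen, to ask how inverted feeding resets daily rhythms. Whole liver was sequenced, so that fewer endothelial cells and less RNA per endothelial cell cannot be told apart, and every value is relative to the RNA of the whole organ.

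Liver sinusoids are lined by a fenestrated endothelium with almost no basement membrane. Its cells take up waste macromolecules, immune complexes and hyaluronan from the blood through scavenger receptors, and they send and receive signals that set vessel growth and liver zonation. Stab1 and Stab2 encode the stabilins, scavenger receptors of which the second clears hyaluronan. Lyve1 encodes a further hyaluronan receptor and Fcgr2b the inhibitory Fc receptor that takes up immune complexes. Ehd3 encodes a protein of endocytic recycling. Kdr and Flt4 encode receptors for vascular endothelial growth factors (VEGF), Eng a co-receptor for BMP and TGF-beta ligands, Cdh5 the cadherin of endothelial junctions, and Ptprb a receptor phosphatase that acts on that cadherin and on the angiopoietin receptor encoded by Tek. Some macrophages also express Stab1 and Lyve1, and B cells and macrophages express Fcgr2b.

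Values are scaled counts, that is, counts worked back from the deposited table and multiplied by a factor for each library, so that 1 unit stood for 304 to 723 recovered counts. The libraries held 286.4 to 659.3 M recovered counts (M, mega), which cannot be read as sequencing reads. All 10 markers were measured in every library, from a lowest value of 5.02 for Lyve1 to a highest of 428 for Ptprb. Replicates of a group correlated at 0.965 to 0.990 across genes. NRF ZT16 replicate 3 and NRF ZT12 replicate 3 had the lowest median correlations with their own groups, at 0.966 and 0.969, and results are given without them where that changes a call.

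Levels can be set side by side between genes only per length of exon. Per kilobase, the mean scaled count over 56 libraries was 26.8 for Eng, 25.6 for Ptprb and 22.8 for Stab2. Cdh5 followed at 15.96, Ehd3 at 12.8 and Kdr at 9.18. Fcgr2b stood at 5.39, Flt4 at 4.95, Stab1 at 4.05 and Lyve1 at 3.36. The order thus ran from the co-receptor, the phosphatase and a stabilin down to the hyaluronan receptor Lyve1. In the GRCm38 annotation, Stab2 lies at chr10:86841198-87008025 on the minus strand, Flt4 at chr11:49609263-49652739 on the plus strand and Ehd3 at chr17:73804134-73832094 on the plus strand. Exons of Fcgr2b, Stab2, Eng and Stab1 overlap genes on the opposite strand over 2.68%, 1.61%, 1.51% and 1.09% of their length, and those of the other 6 markers overlap no annotated gene. Fcgr2b shares sequence with other Fc receptor genes, so its counts are less certain.

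The promoters of Stab2, Flt4 and Ehd3 are shown because these genes had the smallest adjusted p-values for a difference in rhythm among markers with a RefSeq promoter entry, Ptprb having none. The 250 bases before the start site are from RefSeq (GRCm38.p6), 5′ to 3′, with the letters GGAAG or CTTCC, the core bound by ETS factors, in capitals.
Stab2, chr10:87007943-87008192, minus strand: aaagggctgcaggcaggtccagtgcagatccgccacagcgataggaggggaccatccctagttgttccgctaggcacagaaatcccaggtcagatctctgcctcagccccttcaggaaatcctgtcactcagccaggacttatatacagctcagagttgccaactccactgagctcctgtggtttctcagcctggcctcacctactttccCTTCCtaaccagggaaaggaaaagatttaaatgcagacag
Flt4, chr11:49609429-49609678, plus strand: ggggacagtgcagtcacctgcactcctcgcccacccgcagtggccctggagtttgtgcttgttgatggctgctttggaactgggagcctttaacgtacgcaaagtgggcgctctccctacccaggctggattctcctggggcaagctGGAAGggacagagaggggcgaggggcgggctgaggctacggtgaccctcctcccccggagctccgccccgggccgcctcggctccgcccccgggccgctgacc
Ehd3, chr17:73804591-73804840, plus strand: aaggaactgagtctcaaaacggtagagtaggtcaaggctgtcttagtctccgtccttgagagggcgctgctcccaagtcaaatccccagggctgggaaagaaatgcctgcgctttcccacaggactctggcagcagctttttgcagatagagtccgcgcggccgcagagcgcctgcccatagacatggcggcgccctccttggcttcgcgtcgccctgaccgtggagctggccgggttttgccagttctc
Stab2 and Flt4 held this core once each and Ehd3 did not hold it. On either strand it stood in 6 of the 7 markers with an entry and in 64.1% of all 32851 promoters. The E-box CACGTG, the letters bound by clock factors, was in 0 of these 7 and in 6.02% of all promoters, and the GATA letters AGATAA were in 0 of 7 and in 9.99% of all. The RefSeq start sites lie 83, 416 and 707 bases inside the annotated gene bounds of Stab2, Flt4 and Ehd3 given above, so these windows lie wholly within the bounds of Flt4 and Ehd3. Each motif was searched on both strands, a match describes the sequence only, and no match says only that the letters are not in these 250 bases.

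Most of the 10 markers oscillated over the day, with small amplitudes. A 24 h cosine was fitted with limma in each regimen, and its F test was adjusted over all genes. Under DRF 7 of 10 markers passed (35.1% of all genes did), and under NRF 9 of 10 passed (43.7% of all genes). Amplitudes, the height of the cosine above its mean on the log2 scale, had a median of 0.16 under DRF and of 0.13 under NRF, against 0.09 and 0.10 over all genes tested. Neither these medians nor the shares of all genes, here and below, compare genes of like level. Of the 25304 genes tested, 13754 had a mean scaled count of at least 1, and the pseudocount compresses the amplitudes of the others. The markers had mean scaled counts from 9.81 for Lyve1 to 342 for Ptprb. Eng, Kdr and Cdh5 did not pass under DRF (adjusted p = 0.0719, 0.451 and 0.232), nor did Stab1 under NRF (adjusted p = 0.412). Several of the other calls were narrow: under NRF, the calls of Lyve1, Eng, Kdr and Fcgr2b were each lost in 3 of 4 fits that left out 1 replicate number, with adjusted p up to 0.294, 0.0979, 0.229 and 0.240, and that of Ptprb in 2 of 4 (up to 0.364). Under DRF the call of Fcgr2b was lost in 3 of 4 such fits (adjusted p up to 0.112), and those of Ehd3 and Flt4 in 1 of 4 each (up to 0.107 and 0.0625). Without the 2 libraries that stood apart, Kdr and Fcgr2b did not pass under NRF (adjusted p = 0.0716 and 0.0945).

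**Figure D1:**
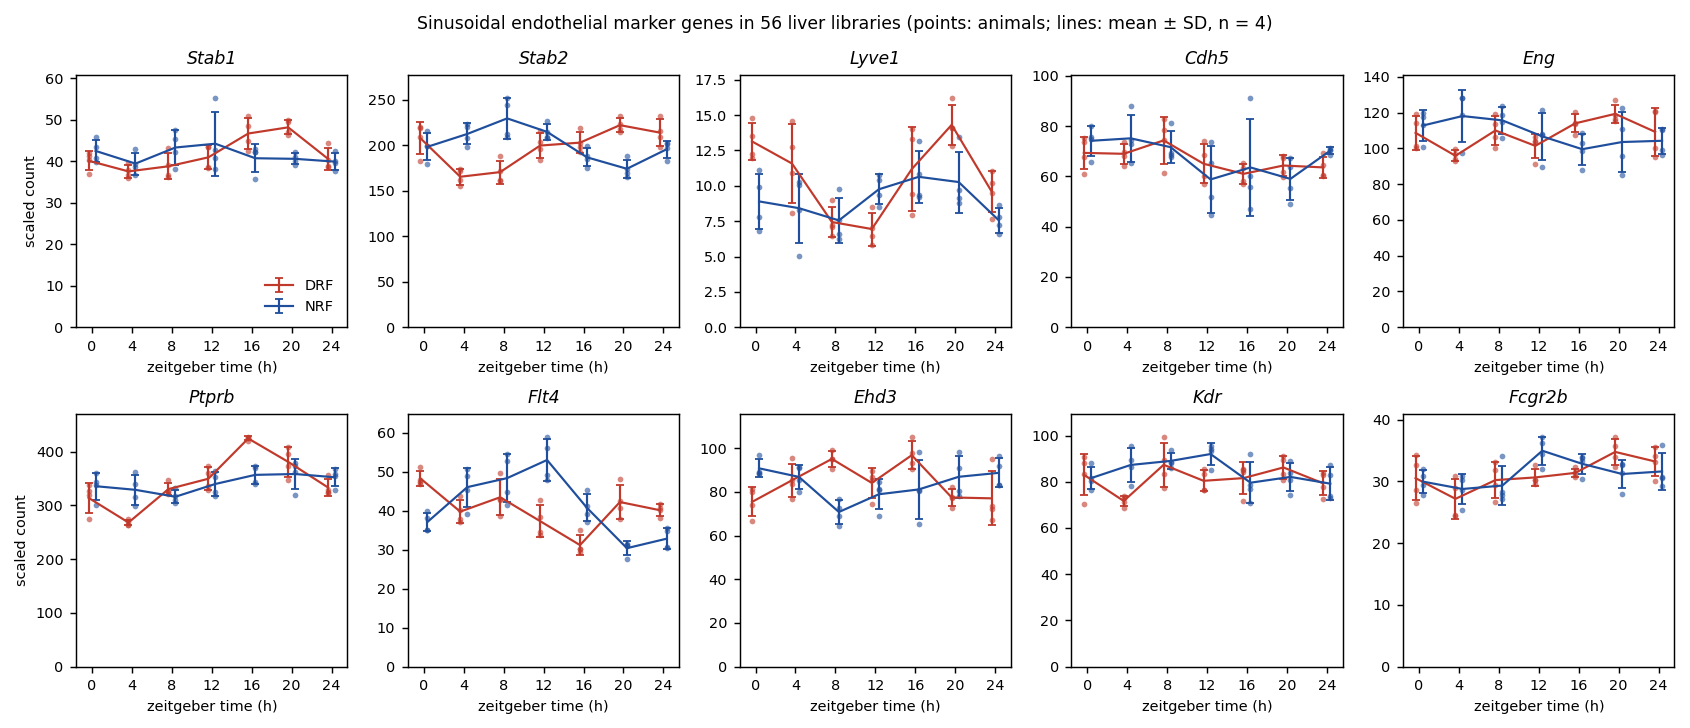
Scaled counts of the 10 markers against zeitgeber time in hours, 1 panel per gene, with DRF in red and NRF in blue; points are animals and lines join group means with the SD of 4 animals. Stab2 crosses over between the regimens, from 165 under DRF and 212 under NRF at ZT4 to 222 and 174 at ZT20, and Ptprb rises under DRF to 424 at ZT16.

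The rhythm itself differed between regimens in 7 of 10 markers (38.8% of all genes), namely Stab2, Flt4, Ptprb, Ehd3, Stab1, Eng and Lyve1. All 7 passed in each of the 4 fits that left out 1 replicate number. On the values as deposited, which are log-compressed, 4 of 10 passed. The rhythm-adjusted mean (mesor) differed in 0 of 10 markers by limma (6.84% of all genes), and 0 reached an unadjusted p under 0.05. Its DRF minus NRF difference lay between -0.07 for Flt4 and 0.13 for Lyve1 on the log2 scale, with SEs of 0.04 and 0.07. Of the 10 markers, 8 differed at one time or another by the test over all 7 times (42.6% of all genes), and Fcgr2b and Cdh5 did not (adjusted p = 0.222 and 0.713). Without the 2 libraries that stood apart Kdr did not pass this test either (adjusted p = 0.0639), which left 7 of 10.

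Dual-oscillating markers, that is, those rhythmic under both regimens, numbered 6 (23.3% of all genes): Stab2, Lyve1, Ptprb, Flt4, Ehd3 and Fcgr2b. Among them 2, Stab2 and Ehd3, were phase-inverted, with peaks 8 to 12 h apart, as were 50.8% of all dual-oscillating genes. Ptprb and Fcgr2b were phase-locked, within 4 h (24.6% of all), and Lyve1 and Flt4 lay between. All 3 classes were thus found among the markers. Without 1 replicate number the dual-oscillating markers numbered 2 to 5, with 2 when number 1 was left out, and the phase-locked class held 0 or 1 marker in each of these fits.

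**Figure D2:**
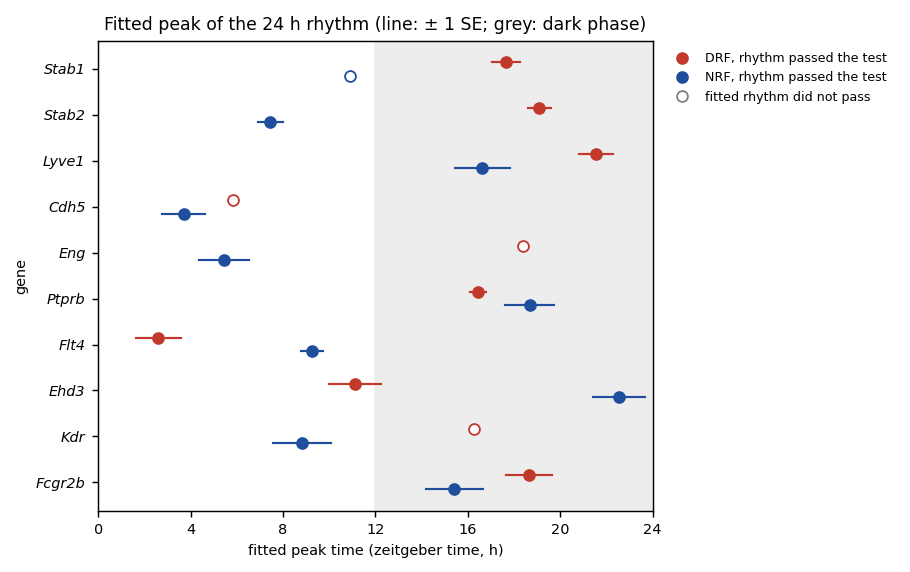
Fitted peak time of each marker in hours of zeitgeber time, DRF in red and NRF in blue, with a line of 1 SE on either side where the rhythm passed the test, open points where it did not, and the dark phase in grey. The Stab2 peaks are at 19.1 h (DRF) and 7.46 h (NRF), whereas the peaks of Ptprb, at 16.4 h and 18.7 h, are 2.22 h apart.

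Among the scavenger and uptake genes, Stab2 had the smallest adjusted p for the difference in rhythm of the 10 markers. At ZT8 its values were 162, 188, 172 and 161 under DRF and 253, 209, 212 and 245 under NRF. At ZT20 they were 215, 224, 218 and 232 under DRF and 188, 170, 165 and 174 under NRF. All 4 DRF livers were below all 4 NRF livers at ZT8, and all 4 were above them at ZT20. The log2 difference, DRF minus NRF, was -0.42 ± 0.06 (SE, adjusted p = 5.14e-06) at ZT8 and 0.35 ± 0.06 at ZT20 (adjusted p = 8.64e-05). At ZT4, a further time without overlap, it was -0.36 ± 0.06. Its peak moved from 7.46 ± 0.55 h under NRF to 19.1 ± 0.48 h under DRF, a shift of 11.6 ± 0.73 h, and the difference in rhythm had an adjusted p of 1.33e-10. On the values as deposited the shift was 5.14 h and the NRF rhythm did not pass (adjusted p = 0.596).

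Stab1 passed the test of rhythm under DRF, where it peaked at 17.6 ± 0.59 h with an amplitude of 0.18, and not under NRF. Its values at ZT20 were 46.4, 49.8, 47.0 and 49.4 under DRF and 41.0, 39.9, 39.2 and 42.2 under NRF, which do not overlap. The log2 difference was 0.24 ± 0.08 (adjusted p = 0.0268), a call lost in 3 of 4 fits without 1 replicate number, and with the median-of-ratios scaling, the length correction and the pan-endothelial reference (adjusted p = 0.0584, 0.0565 and 0.0537). The amplitude under NRF was 0.04, and the difference between the fitted rhythms had an adjusted p of 0.00150. In NRF ZT16 the library of replicate 3 stood alone at 35.6, below the 42.1 to 42.9 of the other 3.

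Lyve1 showed the widest swing of the 10 markers under DRF, with a group mean of 14.3 ± 1.43 (SD, n = 4) at ZT20 and of 6.95 ± 1.16 at ZT12, a ratio of 2.06. The 4 livers at ZT20 held 14.1, 12.8, 16.2 and 14.1, and those at ZT12 held 6.44, 7.04, 5.79 and 8.51, without overlap. Under NRF the highest group mean was 10.6 ± 1.84 at ZT16 and the lowest 7.55 ± 1.58 at ZT8, groups that overlap. The peak lay at 21.5 ± 0.73 h with day feeding and at 16.6 ± 1.18 h with night feeding, 4.92 ± 1.39 h apart, and the difference in rhythm had an adjusted p of 0.00330. At ZT0 Lyve1 was higher under DRF, at 14.8, 13.5, 12.0 and 12.2 against 9.91, 6.81, 11.1 and 7.77 (log2 difference 0.53 ± 0.17, adjusted p = 0.0293), though this call was lost in 3 of 4 fits without 1 replicate number. Being the marker with the lowest counts, its log2 differences are understated by the pseudocount.

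Kupffer cell markers are given beside these ZT20 values because macrophages can express Stab1 and Lyve1. Over 12 such genes the mean log2 deviation was 0.05 ± 0.30 (SD, n = 4) under DRF and -0.27 ± 0.13 under NRF at that time, while 0 of the 12 passed the limma test there and 2 had an unadjusted p under 0.05. Their summed scaled count ranged from 782 to 1167 under DRF and from 723 to 881 under NRF at ZT20, ranges that overlap, and none of the 12 was at 0 throughout. Their part in the values of Stab1 and Lyve1 was not tested.

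Ehd3, of the endocytic recycling machinery, was the other phase-inverted marker, in the opposite order to Stab2. Its fitted peak fell at 11.1 ± 1.11 h with day feeding and at 22.5 ± 1.11 h with night feeding, a shift of 11.4 ± 1.57 h (adjusted p for the difference in rhythm 6.59e-05). Without replicate number 1 the shift was 9.39 h. Under DRF the group means were 95.2 at ZT8, 84.1 at ZT12 and 96.9 at ZT16, so the fitted peak lay near a dip between higher values. At ZT8 livers held 99.4, 95.3, 90.6 and 95.2 under DRF and 76.9, 72.8, 64.4 and 69.2 under NRF, so that every DRF liver was above every NRF liver. The log2 difference of 0.42 ± 0.09 (adjusted p = 9.22e-04) passed in all 4 fits without 1 replicate number. At ZT0 the sign was the other way, -0.27 ± 0.09 (adjusted p = 0.0389), and at ZT16 it was 0.26 ± 0.09 with overlapping groups (adjusted p = 0.0438), and each of these calls was lost in 3 of 4 such fits. The ZT16 call was also lost without the 2 libraries that stood apart (adjusted p = 0.0852) and with the 3 other scalings just named for Stab1 (adjusted p up to 0.0667). On the values as deposited the shift was 5.197 h.

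Fcgr2b passed the test of rhythm under both regimens without a called difference between them. Each of the 2 rhythm calls was lost in 3 of 4 fits without 1 replicate number. Adjusted p reached 0.112 under DRF and 0.240 under NRF. The NRF call was also lost without the 2 libraries that stood apart. With the correction for gene length the shift was 3.41 h, but Fcgr2b did not pass under both regimens and was not phase-locked. DRF livers peaked at 18.7 ± 0.99 h and NRF livers at 15.4 ± 1.21 h, a shift of 3.24 ± 1.57 h, with amplitudes of 0.12 and 0.10. Its highest group mean was 34.8 ± 2.13 (SD, n = 4) at ZT20 under DRF and 35.0 ± 2.27 at ZT12 under NRF, and its lowest were 27.2 ± 3.29 and 28.8 ± 2.44, both at ZT4. The difference in rhythm did not pass (adjusted p = 0.227), and at no single time did the regimens differ by the test.

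Among the receptors for growth factors, Flt4 differed between DRF and NRF at 5 of 7 times, more than any other marker. At ZT12 it stood at 34.5, 42.8, 33.8 and 38.3 under DRF and at 56.1, 59.0, 47.8 and 49.3 under NRF. At ZT20 it stood at 42.4, 40.6, 37.8 and 48.2 under DRF and at 31.6, 31.0, 27.7 and 31.3 under NRF. DRF livers were thus all lower at ZT12 and all higher at ZT20. The log2 differences were -0.50 ± 0.09 (adjusted p = 4.06e-05) and 0.46 ± 0.09 (adjusted p = 1.34e-04), and the groups did not overlap at ZT0, ZT16 and ZT24 either, with differences of 0.37, -0.37 and 0.28. The ZT24 call was lost in 2 of 4 fits without 1 replicate number, with an adjusted p of up to 0.195. Its amplitude was 0.36 ± 0.04 under NRF, with a peak at 9.24 ± 0.48 h, and 0.18 ± 0.04 under DRF, with a peak at 2.60 ± 0.97 h. These peaks were 6.64 ± 1.08 h apart and the difference in rhythm had an adjusted p of 2.19e-07, while the values as deposited gave a shift of 10.9 h.

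Kdr, the main VEGF receptor of blood vessels, had fitted amplitudes of 0.05 under DRF and 0.10 under NRF. Its group means ran from 71.7 ± 2.29 (SD, n = 4) at ZT4 to 87.4 ± 9.51 at ZT8 under DRF, and from 79.2 ± 7.06 at ZT24 to 92.0 ± 4.69 at ZT12 under NRF. It differed between regimens at ZT4, where DRF livers held 68.7, 72.8, 71.2 and 74.0 and NRF livers 78.1, 95.4, 86.4 and 89.3, with no overlap. This log2 difference was -0.28 ± 0.08 (adjusted p = 0.00720), and without replicate number 2 its adjusted p was 0.0546. The difference in rhythm did not pass (adjusted p = 0.0838), although it did relative to the mean of 24 pan-endothelial genes (adjusted p = 0.0360).

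Eng and Cdh5, a co-receptor and the junctional cadherin, were rhythmic under NRF, with peaks at 5.45 ± 1.08 h and 3.69 ± 0.93 h. For Eng the fitted DRF peak was at 18.4 ± 1.22 h, but that rhythm did not pass, so Eng was not counted as phase-inverted although its difference in rhythm passed (adjusted p = 0.00256). Relative to the pan-endothelial mean the DRF rhythm of Eng passed (adjusted p = 0.0170). At ZT4 Eng stood at 96.8, 99.7, 94.0 and 92.9 under DRF and at 97.4, 128, 128 and 119 under NRF, which overlap (log2 difference -0.29 ± 0.09, adjusted p = 0.0201, lost in 3 of 4 fits without 1 replicate number). The NRF rhythm of Cdh5 passed in all 4 such fits, with adjusted p up to 0.0415, and its rhythm did not differ between regimens by the test (adjusted p = 0.337). Its spread was widest where the libraries stood apart: at NRF ZT16 replicate 3 held 91.4 and the other livers 46.9, 55.96 and 59.999.

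Ptprb, the phosphatase, changed in height more than in timing. At ZT16 the DRF livers held 419, 426, 428 and 425 and the NRF livers 344, 369, 340 and 374. At ZT4 the DRF livers held 264, 264, 270 and 275 and the NRF livers 339, 362, 316 and 298. Every DRF liver was above every NRF liver at ZT16 and below it at ZT4. The log2 differences were 0.25 ± 0.06 (adjusted p = 0.00351) and -0.29 ± 0.06 (adjusted p = 4.34e-04), and without replicate number 3 the first had an adjusted p of 0.0545. The amplitude was 0.27 ± 0.03 under DRF and 0.09 ± 0.03 under NRF, with peaks 2.22 ± 1.14 h apart, and the difference in rhythm had an adjusted p of 5.52e-05. Ptprb has exons of 13333 bases, and its log2 value correlated at 0.52 over 56 libraries with how strongly long genes stood above short ones in a library. After a correction for gene length the NRF rhythm of Ptprb did not pass (adjusted p = 0.208), the shift was 3.86 h, and the difference in rhythm had an adjusted p of 0.000191. Other markers also followed the measure of long against short genes. Cdh5 correlated with it at -0.45 and Fcgr2b at 0.40 over 56 libraries, and Eng at -0.59 within groups. In both regimens its group mean was negative at ZT0, ZT4 and ZT8 and positive at the later times.

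**Figure D3:**
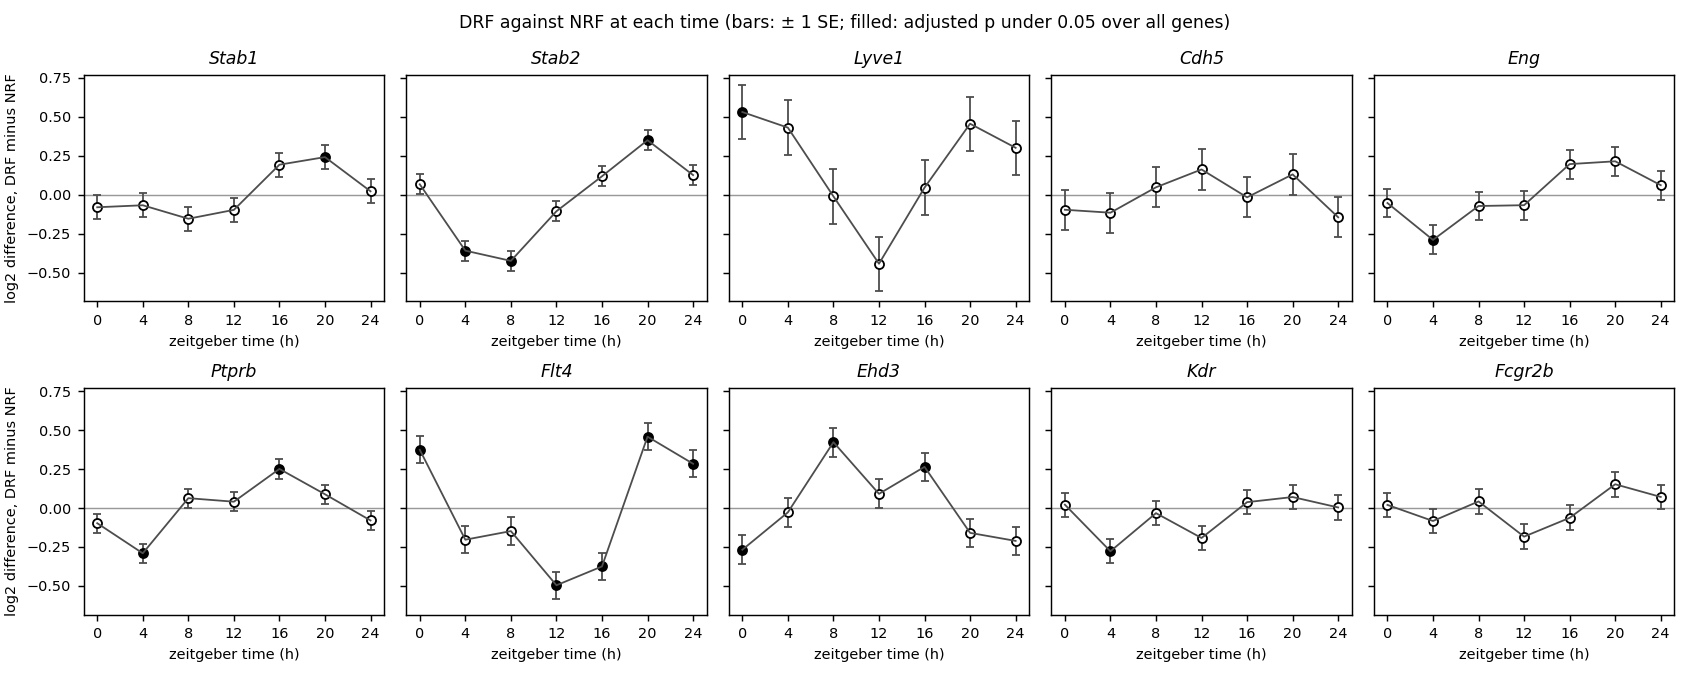
Log2 difference of scaled counts, DRF minus NRF, against zeitgeber time in hours for each marker, with bars of 1 SE and filled points where the adjusted p over all genes was under 0.05. Stab2 goes from -0.42 at ZT8 to 0.35 at ZT20, and Flt4 from -0.50 at ZT12 to 0.46 at ZT20.

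Time by time, the number of markers that differed between regimens was small, and its direction changed over the day. At ZT4, 4 of 10 passed (20.4% of all genes), all lower under DRF: Stab2, Eng, Ptprb and Kdr. At the same time 5 of 5 erythroid genes were higher under DRF, with a median log2 difference of 1.14 and a summed scaled count of 918 to 1908 against 469 to 921 under NRF. Of 6 lymphocyte genes 2 were lower, with a median of -0.20 and sums of 16.6 to 24.9 against 18.2 to 34.9. The part of either in the ZT4 values of the markers was not tested. Of 24 pan-endothelial genes 1 was higher and 0 were lower by limma at ZT4, with a median of 0.01, and 6 had an unadjusted p under 0.05. At ZT20, 3 of 10 passed (13.8% of all genes), all higher under DRF: Stab1, Stab2 and Flt4. The remaining times had markers on either side or a single one. At ZT0, 3 passed (16% of all genes), with Lyve1 and Flt4 higher and Ehd3 lower under DRF. At ZT8, 2 passed (13% of all genes), with Ehd3 higher and Stab2 lower. At ZT12 Flt4 alone was lower (15.2% of all genes), at ZT16 Ptprb and Ehd3 were higher and Flt4 lower (15.2%), and at ZT24 Flt4 alone was higher (14.1%). With 10 markers, counts of this size are too small to be set apart from the shares of all genes.

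ZT24 and ZT0 fall at the same hour of the cycle on different days. Of the 10 markers, 0 differed between them under DRF by limma (3.07% of all genes), where 2, Flt4 and Lyve1, had an unadjusted p under 0.05. Under NRF 0 differed (7.86% of all genes), with 0 at an unadjusted p under 0.05. Flt4 came nearest under DRF, at -0.26 on the log2 scale for ZT24 minus ZT0 (adjusted p = 0.0862), and with a correction for gene length it passed (adjusted p = 0.0226). The libraries at these times differed in how long genes stood to short ones, measured as the Spearman correlation across genes of the log2 deviation with gene length. Its group mean was -0.12 at ZT0 and 0.17 at ZT24 under DRF, and -0.18 and 0.18 under NRF. With the correction 24.5% of all genes passed under DRF and 33.1% under NRF, which is the background for the corrected calls given here and for other genes. With more genes passing, the adjusted threshold is reached more easily, so a pass there is no check of the uncorrected call.

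Over the 56 libraries the markers moved together in part. Within groups, after each group's mean was removed, the Pearson correlation of log2 values was above 0 in 42 of 45 pairs of markers, with a median of 0.29 and a highest value of 0.67 for Cdh5 and Eng. Over the 14 group means it was above 0 in 30 of 45 pairs and ranged from -0.65 for Cdh5 and Fcgr2b to 0.70 for Stab1 and Ptprb. Pairs shared their variation between animals more evenly than their course over the day, which is a description of values that share libraries and scaling. Among 13558 other genes with a median scaled count of at least 1, Pecam1, an adhesion molecule of endothelial junctions, was most like the mean z-score of the 10 markers (r = 0.81, 56 libraries). Stard8 (0.74), Mrc1 (0.73), Oit3 (0.72), Clec4g (0.72) and Dnase1l3 (0.69) came next, followed by Cd300lg (0.69), Rad21 (0.68), Fbxo32 (0.68) and Eef2 (0.66). Mrc1 encodes the mannose receptor, a scavenger receptor of the same endothelium, and Clec4g a lectin of sinusoidal endothelium.

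Other sinusoidal genes can be set beside the 10 markers. Of 19 such genes 10 were rhythmic under DRF (35.1% of all genes), 10 under NRF (43.7%) and 6 under both (23.3%), and 13 differed in rhythm (38.8%). Their median log2 difference between regimens was -0.17 at ZT4 and 0.17 at ZT20, beside -0.16 and 0.18 for the 10 markers. Over all genes tested the median was less than 0.01 in size at these and all other times, so it is no background for the lists. ZT4 and ZT20 are also the times at which several called markers all lay on the same side. Medians of like size were also found in lists of other cells at ZT4 or ZT20. They were 0.06 and 0.26 for Kupffer cell, -0.13 and 0.01 for hepatocyte and -0.20 and 0.0007 for lymphocyte genes. For stellate cell genes they were -0.08 and 0.07, and for cholangiocyte genes -0.004 and -0.18. At ZT4, 1 of the 19 other sinusoidal genes was higher and 5 were lower under DRF (20.4% of all genes differed). At ZT20 5 were higher and 0 lower (13.8% of all genes differed). Maf, a transcription factor of sinusoidal endothelium, had its peak at 20.05 ± 0.49 h in DRF livers and 7.40 ± 0.56 h in NRF livers, and these were 11.4 ± 0.75 h apart (adjusted p for the difference in rhythm 1.30e-10). Bmp2, a ligand by which this endothelium acts on hepatic iron control, peaked at 1.17 ± 1.13 h and 7.80 ± 0.42 h (adjusted p = 2.81e-07). Gpr182, an atypical chemokine receptor, peaked at 11.4 ± 0.71 h and 20.2 ± 1.03 h (adjusted p = 3.60e-06). For ZT24 against ZT0, Rspo3, an enhancer of WNT signalling, was higher at ZT24 under DRF (0.36, adjusted p = 0.0214), and Bmp2 was lower under NRF (-0.34, adjusted p = 0.0116). The next smallest adjusted p-values under DRF were 0.154 for Fam167b and 0.182 for Bmp2, and under NRF 0.0654 for F8, the gene of coagulation factor VIII, and 0.372 for Wnt9b. With the correction for gene length the calls of Rspo3 and Bmp2 still passed (adjusted p = 0.00819 and 0.00279), at log2 differences of 0.41 and -0.32.

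Pan-endothelial genes, which mark all vessels, stayed closer to level in the mean of the list. Singly they did not all do so, with amplitudes of up to 0.49 under DRF and 0.45 under NRF. Their median amplitudes were 0.10 and 0.13, beside 0.16 and 0.13 for the 10 markers. Genes with different peak times cancel in such a mean. Sox17 and Icam2, at mean scaled counts of 0.34 and 0.66, are also compressed by the pseudocount of 1. Of the 24 pan-endothelial genes 11 were rhythmic under DRF (35.1% of all genes), 14 under NRF (43.7%) and 5 under both (23.3%), and 12 differed in rhythm (38.8%). Their mean log2 deviation lay between -0.07 and 0.05 over the 14 groups, beside -0.10 to 0.13 for the 10 markers and -0.12 to 0.07 for the other sinusoidal genes. S1pr1, a receptor for sphingosine phosphate, was phase-inverted, with DRF and NRF peaks at 8.61 ± 0.54 h and 21.4 ± 0.60 h (adjusted p = 1.52e-10). Flt1, a decoy and receptor for VEGF, peaked at 14.6 ± 0.48 h and 21.5 ± 0.65 h (adjusted p = 3.63e-09), and Vwf, the von Willebrand factor, at 18.0 ± 0.49 h under DRF with no call under NRF (adjusted p = 1.51e-04 for the difference). Egfl7, a secreted endothelial protein, was lower at ZT24 than at ZT0 under DRF (-0.35, adjusted p = 0.00931) and under NRF (-0.44, adjusted p = 5.08e-04), and Sox18 was lower under NRF (-0.30, adjusted p = 0.0235). Nos3 and Adgrl4 under DRF (adjusted p = 0.0704 and 0.107) and Cyyr1 under NRF (adjusted p = 0.0525) did not pass. With the correction for gene length the Sox18 call was lost (adjusted p = 0.0748), whereas Egfl7 passed under both regimens. Nos3 under DRF (adjusted p = 0.0292) and Adgrl4 under both also passed, though their log2 differences hardly changed. Nos3 stood at -0.25 after -0.26 without the correction. Adgrl4 stood at 0.26 under DRF and 0.23 under NRF, after 0.25 and 0.24.

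Ligands, partner receptors and targets of the VEGF, angiopoietin, BMP and TGF-beta pathways were listed as well, and 21 of 22 were tested. Of these 11 were rhythmic under DRF (35.1% of all genes), 13 under NRF (43.7%) and 7 under both (23.3%), and 11 differed in rhythm (38.8%). Flt1, Tek, Tie1 and Nrp1 stand in 2 of the lists each. Vegfa, the main ligand of Kdr, peaked at 4.88 ± 0.44 h with day and 14.6 ± 1.35 h with night feeding (adjusted p = 1.31e-07), with amplitudes of 0.44 and 0.15. Nrp2, a co-receptor of Flt4, peaked at 23.5 ± 1.24 h and 16.5 ± 0.64 h (adjusted p = 1.17e-04). For ZT24 against ZT0, Bmpr2, a BMP receptor, was higher at ZT24 under both regimens (0.29 and 0.28, adjusted p = 0.0209 and 0.0133). Tgfb1 was lower under DRF (-0.50, adjusted p = 0.0430), Vegfb under NRF (-0.47, adjusted p = 0.0313) and Smad6, an inhibitor of BMP signalling, under NRF (-0.36, adjusted p = 0.0377). Vegfb under DRF had an adjusted p of 0.0531. With the correction for gene length, under which far more genes passed, all of these calls passed. Those of Bmpr2 passed narrowly (adjusted p = 0.0439 and 0.0477), at smaller log2 differences of 0.15 and 0.14. Vegfb passed under DRF as well (adjusted p = 0.0262), at -0.38 after -0.47 without the correction.

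**Figure D4:**
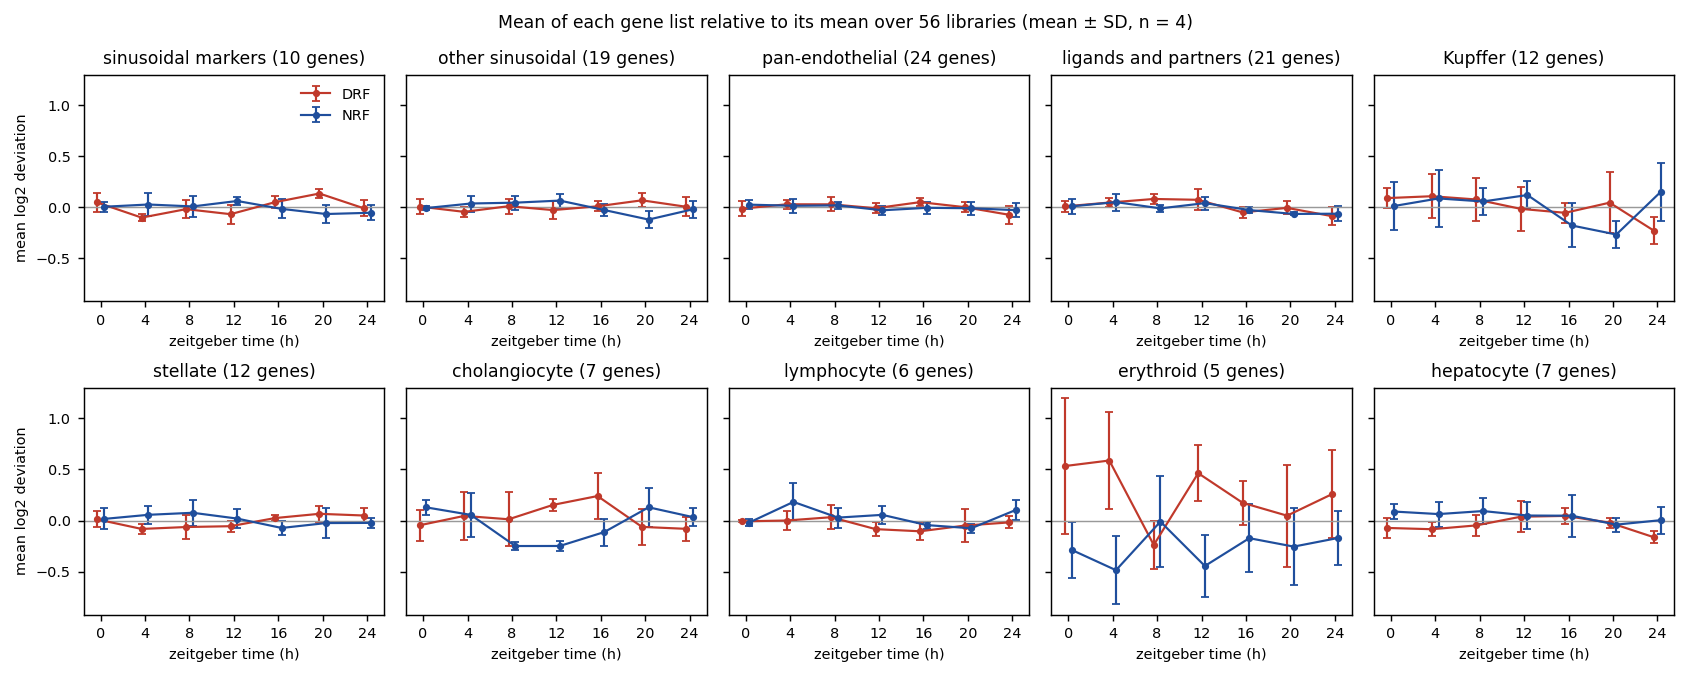
Mean log2 deviation of each gene list from its own mean over 56 libraries, against zeitgeber time in hours, DRF in red and NRF in blue, with the SD of 4 animals. The 10 markers stay within -0.10 to 0.13 and the 24 pan-endothelial genes within -0.07 to 0.05, while 5 erythroid genes range from -0.49 to 0.59.

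Markers of other cells varied beside these genes. All 5 erythroid genes had a higher mean under DRF by the test, with a median difference of 0.52, and their summed scaled count ranged from 469 to 2039 over the libraries. Of 12 stellate cell genes 3 differed in rhythm (38.8% of all genes did), as did 4 of 7 cholangiocyte genes and 0 of 6 lymphocyte genes (0 at an unadjusted p under 0.05 in limma). So did 1 of 12 Kupffer cell genes and 3 of 7 hepatocyte genes. Of 8 hepatocyte genes 7 were tested, and of the listed genes that were tested none was at 0 in all libraries. The part of these cells in the values of the 10 markers was not tested. Relative to the mean of the pan-endothelial genes, 8 of 10 markers differed in rhythm (35% of all genes did), with adjusted p of 1.96e-08 for Stab2, 1.02e-08 for Flt4 and 3.40e-05 for Ehd3.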

How the data were processed

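RNA from 56 mouse livers was sequenced after ribosomal RNA depletion, with strand-specific paired libraries per the labels' protocols, whose molecule field reads polyA RNA. CASAVA 1.8 and featureCounts 1.5.0-p3 and the builds mm10 and GRCm38.p6 are named, without roles, in the submitters' processing notes, and the use of strand in counting is not given in the sources used here. The gene values the authors deposited under the name TPM are used as a score, since they are log-compressed: multiplied by exon length, they follow a·ln(1 + f·k), where k is a whole count. Between 91.8% and 99.2% of values in genes left out of that fit came within 0.05 of a whole number, and 25304 of 25415 genes could be used. The linear product f·k is the scaled count. The planned tests assumed linear TPM and were applied to log2(scaled count + 1) with limma 3.58.1 in R 4.3.3: F tests of a 24 h cosine, of its difference between regimens, and of contrasts at each time, with Benjamini-Hochberg adjustment over all genes at 0.05. A mean deposited value of 0.1 was required, which removed 0 genes. Phase-locked means a shift of up to 4 h and phase-inverted of at least 8 h between 2 rhythms that passed. The fit was also run on simulated data with means and spreads taken from these genes, and the outcome is not given here. Every column was assigned from its name. Named in the text are all 10 markers, the 3 listed genes with the smallest adjusted p for the difference in rhythm and for ZT24 against ZT0, and the 10 genes most like the markers. The markers and lists were chosen with earlier results of these data known. Replicates are different animals, and their spread gives the precision. Transcript and circular RNA tables were not used here. Alternatives were other scalings, pseudocounts and filters, a length correction, a rank test and omitted replicates or times.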

Additional observations from a re-analysis of the deposited data

Results flagged for a closer look

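Among 140 groups of 4 livers, 10 markers in 14 groups, 9 held a liver whose distance from its neighbour took up nearly the whole range of the group, which chance gives in about 1 in 20 groups. The liver stood above the others for Cdh5 in NRF ZT8 replicate 1 (81.0, others 67.7 to 69.4) and for Fcgr2b in the same liver (34.1, others 27.2 to 28.2). It stood above for Ehd3 in NRF ZT0 replicate 3 (97.0), for Flt4 in DRF ZT16 replicate 2 (35.1) and for Ptprb in DRF ZT24 replicate 3 (357). It stood below for Eng in DRF ZT12 replicate 1 (91.4), for Kdr in DRF ZT16 replicate 1 (71.5), for Flt4 in NRF ZT20 replicate 3 (27.7) and for Stab1 in NRF ZT16 replicate 3 (35.6).

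The rhythms of 7 markers differed between DRF and NRF by the test of the difference itself in limma. The adjusted p-values were 1.33e-10 for Stab2, 2.19e-07 for Flt4, 5.52e-05 for Ptprb, 6.59e-05 for Ehd3, 0.00150 for Stab1, 0.00256 for Eng and 0.00330 for Lyve1.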

How the results depend on the processing

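Counts of markers that passed were recomputed under each alternative, and 189 of 223 came within 1.5 times the reported count. On the values as deposited, 5 passed for rhythm under NRF, 4 for the difference in rhythm, 4 at any time, 0 at ZT4, 1 at ZT16, 0 at ZT24, and for ZT24 against ZT0 1 under DRF and 6 under NRF, with 1 phase-inverted marker. The rank test gave 5 under NRF. With the length correction 1 marker passed for ZT24 against ZT0 in each regimen and 0 were phase-locked. Relative to pan-endothelial genes 3 passed at ZT12. Without ZT0, 1 marker was phase-inverted. Without the 2 libraries that correlated least with their groups, an alternative added after the data were seen, 1 was phase-locked. The length correction of genes other than the markers was also added after the data were seen. Leaving out 1 replicate number at a time gave 5 to 6 for rhythm under NRF, 5 to 6 at any time, 1 to 2 at ZT0, 2 to 4 at ZT4, 1 to 3 at ZT16, 0 to 1 at ZT24, 2 to 5 dual-oscillating, 1 to 2 phase-inverted and 0 to 1 phase-locked markers. The causes were not tested, and the fits that left out a replicate number also rest on fewer livers. Over all genes, ZT24 against ZT0 gave 778 calls under DRF and 1989 under NRF, but 6194 and 8368 with the length correction and 1844 and 6057 on the values as deposited. Leaving out 1 replicate number gave 119 to 600 and 160 to 2635 of these calls, and over all genes 756 to 1373 for the mean (reported 1730), 3260 to 4761 at ZT4 (5169), 1980 to 2566 at ZT8 (3296), 2467 to 3215 at ZT12 (3843), 2245 to 3070 at ZT16 (3844), 2271 to 2659 at ZT20 (3495) and 2236 to 2899 at ZT24 (3570). Of 616 refits of 46 results for single markers, 540 kept their call or value, 69 lost the call, 7 phase shifts moved by more than their SE, and 0 reversed. With a replicate block, 7, 9 and 7 markers passed for rhythm under DRF, under NRF and for its difference, and no call of a marker changed. Over both regimens, livers with the same number did not deviate together in the median (correlation 0.00492 over 364 pairs, range -0.375 to 0.304). That median cannot show whether livers with the same number deviate together within 1 regimen. Under NRF, replicate 1 had the highest value of its group for long against short genes at ZT0, ZT4, ZT8, ZT16 and ZT20. It did not at ZT12 and ZT24. Whether the numbers mark a batch was not tested.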
